A study of Mus musculus with 18 samples.

Results

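The genes described here are 10 oxygen-dependent demethylases in cultured mouse tail tendon fibroblasts (TFs): the histone lysine demethylases *Kdm2a*, *Kdm3a*, *Kdm4a*, *Kdm4b*, *Kdm4c*, *Kdm5b* and *Kdm6b*, and the DNA dioxygenases *Tet1*, *Tet2* and *Tet3*. They were taken by gene name from the table of gene counts, where each matched 1 of 55491 rows, and all 10 passed the filter on low counts that left 16174 genes to test. Poly-A RNA of 18 libraries was sequenced, 3 libraries in each of 6 groups, after 4 days of culture at 20% or 1% O2. Ctrl TFs, wild-type in the labels, came from mice without Cre, which the study's methods place in the same cross as the cKO mice and give floxed *Hif1a* alleles. Another set of Ctrl TFs was given Cre gesicles, which are vesicles that carry Cre recombinase into cells, and which the series description gives as a parallel way of inducing knockdown in culture. cKO TFs carried floxed *Hif1a* alleles and Cre driven by the tendon gene *Scx*. The cross was on a mixed C57BL6J/129S1 background. Ctrl and cKO TFs came from mice of both sexes aged 4 to 6 months. In all groups the cells had migrated from the tendons through a collagen gel and had been passaged on plastic in serum, so no group gives the state of the cells in the tendon.

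These enzymes use molecular oxygen, iron and 2-oxoglutarate to remove methyl groups from histone lysines or to oxidise 5-methylcytosine in DNA. *Kdm3a* acts on methylated H3K9, *Kdm4a*, *Kdm4b* and *Kdm4c* on H3K9 and H3K36, *Kdm2a* on H3K36, *Kdm5b* on H3K4 and *Kdm6b* on H3K27, while the Tet proteins start the removal of DNA methylation. Because oxygen is a substrate, low oxygen can limit their activity, and several of their genes, *Kdm3a* and *Kdm4b* among them, are known targets of hypoxia-inducible factors. Activity and methylation were not measured here, only transcripts.

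Library totals lay between 6857558 and 51806453 counts, and the shallowest library was replicate 1 of cKO TFs in 1% O2. The floor of 3 counts was equal to 0.0579 to 0.437 CPM (normalised read counts scaled to a common library total). Every member was above 0 in every library, and the smallest count of any was 12, for *Tet1* in the shallowest library. Whole-gene counts of *Hif1a*, the targeted gene, were not lower in the libraries labelled cKO: they averaged 377 ± 72.8 CPM against 348 ± 19.6 in Ctrl in 20% O2, and 443 ± 54.3 against 420 ± 63.0 in 1% O2 (SD, n = 3). With gesicles, *Hif1a* differed from Ctrl TFs by 0.06 in 20% O2 and -0.13 in 1% O2 on the log2 scale (SE 0.14 and edgeR adjusted p = 1 in both). These counts cannot separate a deleted exon from the rest of the transcript, so they do not test the deletion. By qPCR, after a longer culture, the study reported lower *Hif1a* in cKO than in Ctrl tail TFs. All 11 tendon fibroblast markers were measured in every library, with a summed level of 7160 to 18600 CPM. Of the defining markers of other cells, *Pecam1*, *Cdh5*, *Ptprc*, *Myod1*, *Krt5* and *Acan* did not pass the filter on low counts. The markers that passed were 1 of 4 endothelial, 2 of 4 macrophage and leukocyte, 2 of 4 skeletal muscle, 0 of 3 epidermal, 2 of 3 cartilage, 2 of 3 bone and 2 of 3 Schwann cell markers. The endothelial markers summed to at most 0.885 CPM and the macrophage and leukocyte markers to at most 4.07 CPM, but the skeletal muscle markers summed to 12.4 to 47.7 CPM and the cartilage markers to 24.2 to 51.2 CPM. *Acta1* (mean 24.1 CPM) made most of the muscle sum and *Sox9* (mean 31.7 CPM) most of the cartilage sum. *Des* averaged 3.61 CPM and *Col2a1* 1.59 CPM, and no library held more than 1 count of *Myod1* or *Acan*. *Xist* counts were above those of the Y-linked *Ddx3y* in 2 of 3 libraries of each Ctrl and gesicle-treated group and in 1 of 3 of each cKO group, so sex was not balanced between genotypes.

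A property of the libraries moved with several members and is given beside the results. In each library, the mean log2 deviation of the 10% of tested genes with the longest transcripts was compared with that of the 10% with the shortest. This difference ran from -1.37 in replicate 1 of cKO in 1% O2, and -0.96 in replicate 2 of cKO in 20% O2, to 0.67 in replicate 3 of gesicle-treated Ctrl in 20% O2. The Ctrl libraries did not overlap between oxygen levels in it, with 0.46 to 0.54 in 20% O2 and -0.32 to 0.43 in 1% O2. Median transcript length among tested genes was 3070 bases, and the longest transcripts of the 10 members had 4196 (*Kdm4c*) to 14369 bases (*Tet1*). Many of the comparisons are also given with offsets, which remove from each library the part of its deviations that follows gene length and GC content.

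Per kilobase of exon, the 5 most abundant members formed a group with close levels. *Kdm4a* averaged 7.47 CPM per kb over the 18 libraries (SD 1.94), *Kdm4b* 6.53 (SD 1.68), *Kdm3a* 6.32 (SD 1.64), *Kdm4c* 6.02 (SD 0.693) and *Kdm5b* 5.04 (SD 1.2). Their ranges overlapped, and their order changed when the longest transcript was used in place of all exons, with *Kdm3a* then first at 10.7 and *Kdm5b* next at 9.57 CPM per kb. *Kdm2a* followed at 2.9 CPM per kb (SD 0.855), below *Kdm5b* in 18 of 18 libraries.

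The remaining members were scarce. *Kdm6b* reached 0.708 CPM per kb (SD 0.138), below *Kdm2a* with no overlap between their ranges. *Tet3* had 0.481 (SD 0.11) and *Tet2* 0.367 (SD 0.128) CPM per kb, and their ranges overlapped with each other. The ranges of *Kdm6b* and *Tet3* overlapped too. By the longest transcript these members were close, at 0.74 for *Kdm6b*, 0.737 for *Tet3* and 0.675 for *Tet2*. *Tet1* was the lowest at 0.0797 CPM per kb (SD 0.0205), with no overlap with *Tet2*, and stood at the 4.27th percentile of the tested genes, against the 65.6th for *Kdm4a*. *Kdm6b* shares 286 exon bases (4.11%) with the antisense gene *Kdm6bos* and *Tet2* 43 bases (0.25%) with the antisense gene *Gm42567*, so counts in those bases are uncertain.

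**Figure D1:**
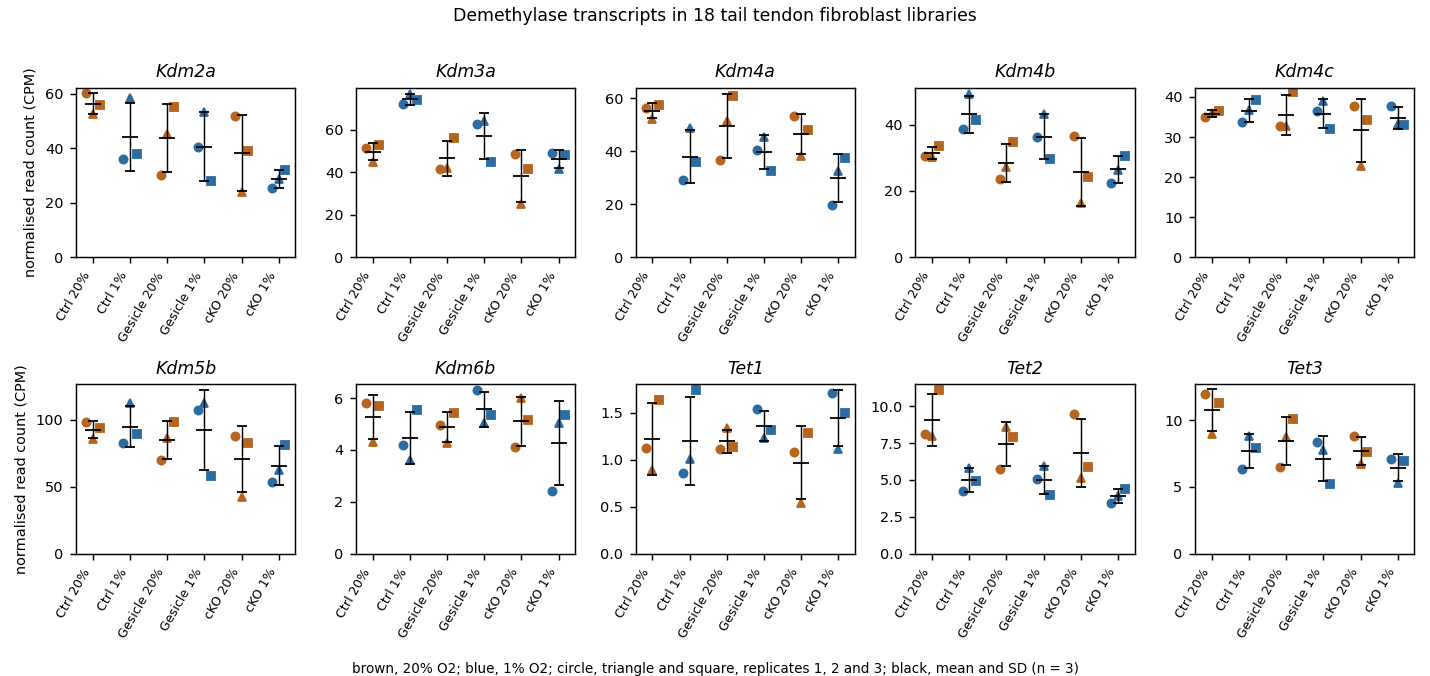
Normalised read count (CPM, vertical axes starting at 0) of each member in the 6 groups, with 1 symbol per replicate and the mean and SD in black (n = 3). *Tet2* lies at 4.25 to 5.84 CPM in Ctrl in 1% O2 and at 8 to 11.1 in Ctrl in 20% O2, and *Kdm3a* at 72.1 to 77.0 against 45.0 to 52.8.

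The first question was how these transcripts respond to 1% O2. Within each arm, none of the 10 members was called at an adjusted p under 0.05 with a fold change of at least 1.5, where 2.68% of all tested genes were called in Ctrl TFs, 3.01% in cKO TFs and 2.41% in gesicle-treated Ctrl TFs. When the response was averaged over the 3 arms, 1 of 10 members was called, *Tet2*, against 10.5% of tested genes. With no fold minimum, 3 of 10 passed (*Tet2*, *Kdm4a* and *Kdm3a*), against 24.6% of tested genes, so the share of members was close to the background. Of the 10 averaged log2 fold changes, 5 were below 0, and their median was -0.03 beside -0.024 for all tested genes. Ctrl and gesicle-treated libraries with the same replicate number deviated together from their group means, so these arms may share mice. Groups of 3 libraries can also lie apart without any change, and the share of all tested genes that did so was not counted. Statements on overlap are therefore descriptions only.

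*Tet2*, which oxidises 5-methylcytosine, was the member with the largest decrease. Its level in Ctrl TFs was 8.10, 8 and 11.1 CPM in 20% O2 and 4.25, 5.84 and 4.90 CPM in 1% O2 (replicates 1 to 3). In gesicle-treated Ctrl TFs it was 5.72, 8.58 and 7.95 CPM against 5.05, 5.92 and 4.00 CPM. In cKO TFs it was 9.47, 5.12 and 5.87 CPM against 3.41, 3.92 and 4.4 CPM. The groups did not overlap in Ctrl and cKO TFs and overlapped in gesicle-treated Ctrl TFs, where replicate 1 in 20% O2 was low. Averaged over the arms, *Tet2* fell by 0.74 on the log2 scale (SE 0.14, a fold of 0.6, edgeR adjusted p = 0.00186).

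Within arms, the log2 fold change of *Tet2* was -0.86 in Ctrl TFs (SE 0.25, edgeR adjusted p = 0.072), -0.78 in cKO TFs (SE 0.25, adjusted p = 0.0946) and -0.57 in gesicle-treated Ctrl TFs (SE 0.25, adjusted p = 0.24). Ctrl libraries with the same replicate number deviated together, and with the replicate as a block *Tet2* was called in Ctrl TFs, at -0.87 and an adjusted p of 0.0461, where 4.66% of genes were called. With DESeq2 it was called as well, at -0.88 and an adjusted p of 0.0168, where 4.6% of genes were called, and with *Xist* as a covariate (-0.86, adjusted p = 0.0398), where 3.06% were. Its level followed the long-gene signal of the libraries (r = 0.81 over 18 libraries that differ in oxygen, arm and depth). With offsets for length and GC content, the averaged log2 fold change was -0.46 (SE 0.09, adjusted p = 0.00087). That value still passed the p threshold but lay under the fold minimum, and 10.3% of genes were called in that fit.

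The other Tet genes were not called. *Tet3* had 12, 8.98 and 11.3 CPM in Ctrl in 20% O2 and 6.32, 8.79 and 7.96 CPM in 1% O2, where the groups did not overlap. Its averaged log2 fold change was -0.33 (SE 0.13 and edgeR adjusted p = 0.0671), and it was 0.00 (SE 0.10) with the offsets. *Tet1* had 30 to 67 counts in the libraries of Ctrl TFs, and its averaged log2 fold change was 0.24 (95% interval -0.19 to 0.67).

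Among the histone demethylases, *Kdm4a* was lower in 1% O2. Its level in Ctrl TFs was 56.5, 52.2 and 57.5 CPM in 20% O2 and 29.2, 48.8 and 35.9 CPM in 1% O2. In cKO TFs it was 53.3, 38.3 and 48.1 CPM against 19.8, 32.4 and 37.4 CPM. In gesicle-treated Ctrl TFs it was 36.7, 51.6 and 60.7 CPM against 40.6, 45.5 and 32.7 CPM. The groups did not overlap in Ctrl and in cKO TFs. The averaged log2 fold change was -0.50 (SE 0.14 and edgeR adjusted p = 0.0152), below the p threshold and short of the fold minimum.

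The level of *Kdm4a* followed the long-gene signal closely (r = 0.898), and that signal was itself lower in 1% O2. With the offsets, the averaged log2 fold change of *Kdm4a* was -0.36 (SE 0.08, adjusted p = 0.00323). Leaving out 1 library at a time moved the uncorrected value between -0.59 and -0.43. Without replicate 2 of Ctrl in 1% O2, the library with the highest *Kdm4a* level in that group, *Kdm4a* passed both thresholds, so that 2 members were called.

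**Figure D2:**
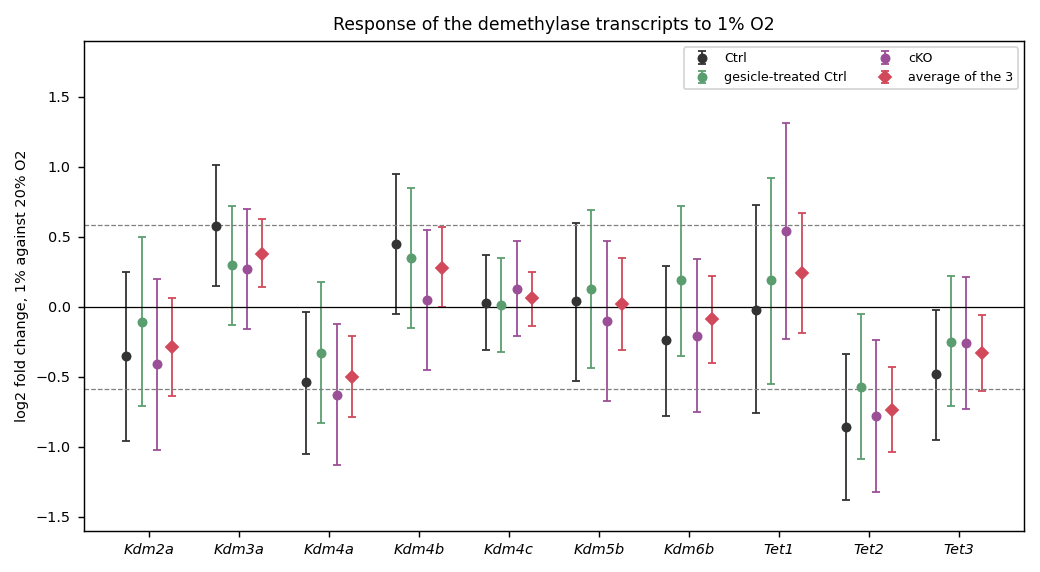
Log2 fold change of each member, 1% against 20% O2 (vertical axis), in Ctrl, gesicle-treated Ctrl and cKO TFs and averaged over the 3, with 95% intervals from the edgeR fit and dashed lines at a fold of 1.5. The intervals of *Tet2* lie below 0 in every arm, and the averaged values are highest for *Kdm3a* (0.38) and lowest for *Tet2* (-0.74).

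*Kdm3a* and *Kdm4b* had the highest averaged log2 fold changes. *Kdm3a* had 51.3, 45.0 and 52.8 CPM in Ctrl in 20% O2 and 72.1, 77.0 and 73.8 CPM in 1% O2, with no overlap. In gesicle-treated Ctrl TFs the levels overlapped, at 41.6, 41.9 and 55.9 CPM against 62.5, 64.0 and 44.7 CPM. In cKO TFs they overlapped too, at 48.5, 24.8 and 41.4 CPM against 49.1, 41.6 and 48.0 CPM. Replicate 3 of the gesicle-treated cells was lower in 1% O2 than in 20% O2, and replicate 2 of cKO TFs in 20% O2 was the lowest of the 18 libraries.

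The log2 fold change of *Kdm3a* was 0.58 in Ctrl TFs (SE 0.20, edgeR adjusted p = 0.138), 0.30 in gesicle-treated Ctrl TFs (SE 0.20, adjusted p = 0.481) and 0.27 in cKO TFs (SE 0.20, adjusted p = 0.458). Averaged, it was 0.38 (SE 0.12, adjusted p = 0.0254). This p was above the threshold without replicate 2 of Ctrl in 20% O2 (0.0609), replicate 2 of gesicle-treated Ctrl in 20% O2 (0.0553), or replicate 1 (0.0538) or 2 (0.0557) of gesicle-treated Ctrl in 1% O2. With the offsets, the averaged value was 0.51 (SE 0.08, adjusted p = 0.000206), and the value in Ctrl TFs was 0.69 (SE 0.14, adjusted p = 0.00667), which was called in a fit where 3.85% of genes were. With the offsets and the replicate block it was also 0.69 (SE 0.10, adjusted p = 0.0013), and 6.64% of genes were called.

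*Kdm4b* had 30.7, 30.3 and 33.5 CPM in Ctrl in 20% O2 and 38.7, 49.4 and 41.4 CPM in 1% O2, again with no overlap. Its log2 fold change was 0.45 in Ctrl TFs (SE 0.24, edgeR adjusted p = 0.346), 0.35 in gesicle-treated Ctrl TFs (SE 0.23, adjusted p = 0.474) and 0.05 in cKO TFs (SE 0.24, adjusted p = 0.929). With the offsets the value in Ctrl TFs was 0.56 (SE 0.13, adjusted p = 0.0145) and that in cKO TFs 0.37 (SE 0.13, adjusted p = 0.095). With the replicate block added they were 0.56 (SE 0.10, adjusted p = 0.00407) and 0.40 (SE 0.10, adjusted p = 0.024). All 4 lay under the fold minimum, and pairing was not read between oxygen levels in cKO TFs. The averaged value was 0.28 (SE 0.14, adjusted p = 0.139), and it was 0.45 (SE 0.07, adjusted p = 0.000317) with the offsets. Over the 18 libraries, which share oxygen, arm and depth as sources of variation, the log2 levels of *Kdm3a* and *Kdm4b* had a Pearson correlation of 0.916, the highest of the 45 pairs of members. The correlation of *Kdm3a* with *Tet2* was -0.0133 and that with *Kdm4a* 0.0304.

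*Kdm2a*, *Kdm4c*, *Kdm5b* and *Kdm6b* did not pass the test in any arm. Their averaged log2 fold changes were -0.29 for *Kdm2a* (95% interval -0.64 to 0.06), 0.06 for *Kdm4c* (-0.14 to 0.25), 0.02 for *Kdm5b* (-0.31 to 0.35) and -0.09 for *Kdm6b* (-0.40 to 0.22). *Kdm4c* varied least of the 10 across libraries, with a coefficient of variation of 11.5%, and *Tet2* most, with 34.9%. *Kdm5b*, which acts on H3K4, was the most abundant member by read count, at 83.4 CPM on average.

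All 10 averaged log2 fold changes were higher with the offsets, by 0.05 to 0.33. *Kdm2a*, whose level had a correlation of 0.912 with the long-gene signal, moved from -0.29 to 0.01 (SE 0.06), and *Kdm5b*, with a correlation of 0.86, moved from 0.02 to 0.31 (SE 0.07, adjusted p = 0.00264). The offsets come from a trend across genes, so they also move members that follow the signal weakly. *Tet1* (r = 0.105) moved from 0.24 to 0.54, *Kdm6b* (r = 0.324) from -0.09 to 0.15 and *Kdm3a* (r = 0.387) from 0.38 to 0.51. With the offsets, 5 of 10 members passed an adjusted p of 0.05 in the averaged comparison with no fold minimum, against 31.4% of tested genes. These were *Kdm3a*, *Kdm4b* and *Kdm5b*, which were higher in 1% O2, and *Kdm4a* and *Tet2*, which were lower. With the replicate block added to the offsets there were 6, against 38.7% of tested genes, and the further member was *Tet1* (0.53, SE 0.18, adjusted p = 0.0348). No member reached the fold minimum in either of these fits. Replicate numbers were not read as pairing between oxygen levels in cKO or gesicle-treated TFs, so the blocked averages are alternatives only.

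**Figure D3:**
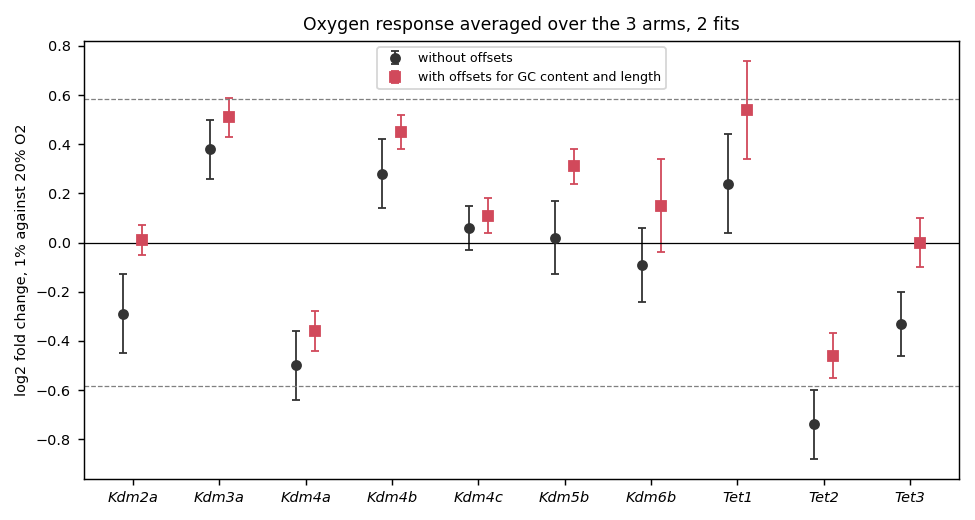
Log2 fold change of each member, 1% against 20% O2 averaged over the 3 arms (vertical axis), without and with the offsets for length and GC content, with SE bars and dashed lines at a fold of 1.5. *Kdm2a* moves from -0.29 to 0.01, *Kdm5b* from 0.02 to 0.31 and *Tet2* from -0.74 to -0.46.

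**Figure D4:**
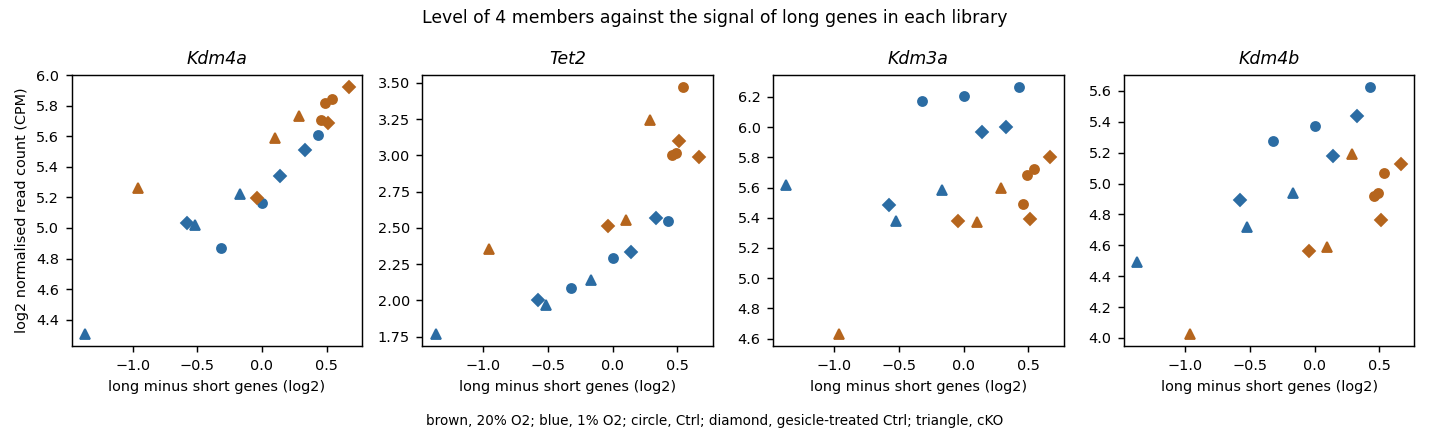
Log2 CPM of 4 members (vertical axes) against the long-minus-short difference of each library (log2, horizontal axes), with 1 symbol per library. *Kdm4a* (r = 0.898) and *Tet2* (r = 0.81) follow the long-gene signal, and the Ctrl libraries (circles) in 1% O2 lie above those in 20% O2 for *Kdm3a* (72.1 to 77.0 against 45.0 to 52.8 CPM).

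*Tet2*, *Kdm4a* and *Kdm3a* are shown with the sequence before their transcription start, since they passed the averaged p threshold in opposite directions. Of the 10 members, 7 were in the RefSeq promoter table (GRCm38.p6). The sequences run 5′ to 3′ on the strand of the gene and hold no annotated exon bases. The letters ACGTG and GCGTG, the core to which hypoxia-inducible factors bind, were searched on both strands in the 250 bases before each start, and matches are in capitals. Of the 27025 windows of that length, 16.5% held ACGTG, 28.3% held GCGTG and 38.6% held either, and 3 of the 7 members held either. The *Kdm3a* sequence lies at chr6:71632991-71633167 (minus strand), the *Kdm4a* sequence at chr4:118180044-118180293 (minus strand) and the *Tet2* sequence at chr3:133544391-133544640 (minus strand), the last within the span of a longer annotated *Tet2* gene model.
Kdm3a: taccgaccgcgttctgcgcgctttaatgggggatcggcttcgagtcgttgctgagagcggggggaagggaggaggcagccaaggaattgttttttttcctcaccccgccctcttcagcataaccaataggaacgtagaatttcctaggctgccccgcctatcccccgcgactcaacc
Kdm4a: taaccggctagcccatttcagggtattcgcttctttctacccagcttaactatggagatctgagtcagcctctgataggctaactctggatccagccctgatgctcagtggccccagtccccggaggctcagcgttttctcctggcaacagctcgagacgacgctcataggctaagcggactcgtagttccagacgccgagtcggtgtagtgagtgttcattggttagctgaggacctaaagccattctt
Tet2: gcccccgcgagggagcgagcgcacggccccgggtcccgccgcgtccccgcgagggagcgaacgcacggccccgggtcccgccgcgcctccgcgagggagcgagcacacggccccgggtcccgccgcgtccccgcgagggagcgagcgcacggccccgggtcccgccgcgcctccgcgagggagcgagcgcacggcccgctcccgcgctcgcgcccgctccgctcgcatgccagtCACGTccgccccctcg
The printed *Kdm3a* and *Kdm4a* sequences held neither motif, and the *Tet2* sequence held ACGTG once, on the opposite strand, 16 bases before the start. The window of *Kdm3a* held GCGTG once, in the 73 bases nearest the start, which are annotated as exon in GENCODE and are not printed. These matches are letters in a window and say nothing of binding.

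The next question was whether these transcripts differed between cKO and Ctrl TFs. No member was called in cKO against Ctrl TFs, in 20% O2 (where 0.538% of tested genes were called) or in 1% O2 (0.0866%). All 10 log2 fold changes were below 0 in 20% O2, with a median of -0.35, and 9 of 10 in 1% O2, with a median of -0.33. The medians of all tested genes were 0.038 and 0.006. With the offsets the medians of the members were -0.03 and -0.01, with 7 and 6 values below 0. The long-gene signal ran from -0.96 to 0.29 in cKO and from 0.46 to 0.54 in Ctrl in 20% O2, and from -1.37 to -0.17 against -0.32 to 0.43 in 1% O2.

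In 1% O2, and without the offsets, *Kdm3a* and *Kdm4b* had the largest differences of the members between cKO and Ctrl TFs. *Kdm3a* was at 49.1, 41.6 and 48.0 CPM in cKO against 72.1, 77.0 and 73.8 CPM in Ctrl TFs, with no overlap, a log2 difference of -0.69 (SE 0.20, edgeR adjusted p = 0.18). *Kdm4b* was at 22.5, 26.3 and 30.7 CPM against 38.7, 49.4 and 41.4 CPM, with no overlap, a log2 difference of -0.70 (SE 0.24, edgeR adjusted p = 0.201). Neither passed the adjustment over all genes. With the offsets the values were -0.49 (SE 0.14, adjusted p = 0.167) for *Kdm3a* and -0.28 (SE 0.13, adjusted p = 0.343) for *Kdm4b*. With *Xist* as a covariate they were -0.64 (SE 0.20) and -0.60 (SE 0.23).

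In 20% O2 the same genes differed less, with log2 fold changes of -0.38 (SE 0.20, edgeR adjusted p = 0.364) for *Kdm3a* and -0.30 (SE 0.24, adjusted p = 0.528) for *Kdm4b*, and their groups overlapped. *Kdm2a* did not overlap between cKO and Ctrl TFs at either oxygen level, with 24.1 to 51.9 CPM against 52.7 to 60.3 in 20% O2 (-0.56, SE 0.28, adjusted p = 0.35) and 25.5 to 31.9 CPM against 36 to 58.5 in 1% O2 (-0.61, SE 0.29, adjusted p = 0.28). With the offsets *Kdm2a* was at -0.20 (SE 0.10) and -0.15 (SE 0.10). *Tet3* did not overlap in 20% O2, with 6.72 to 8.79 CPM in cKO against 8.98 to 12 in Ctrl TFs (-0.48, SE 0.22, adjusted p = 0.314), and was at 0.04 (SE 0.18) with the offsets. *Kdm5b* did not overlap in 1% O2, with 53.4 to 81.3 CPM against 82.6 to 112 (-0.52, SE 0.27, adjusted p = 0.305), and was at -0.09 (SE 0.11) with the offsets. None of these passed the adjustment, and the share of all tested genes without overlap was not counted, so the separations are descriptions.

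*Tet2* was lower in neither comparison at the threshold, at -0.41 (SE 0.24, edgeR adjusted p = 0.403) in 20% O2 and -0.34 (SE 0.25, adjusted p = 0.463) in 1% O2. With the offsets it was at -0.04 (SE 0.14) and 0.06 (SE 0.15), and with *Xist* as a covariate at -0.33 (SE 0.22) and -0.19 (SE 0.23). Among the related genes and cell markers, 3 were called between cKO and Ctrl TFs. *Dcn*, a tendon proteoglycan, was higher in cKO TFs at both oxygen levels (1.97, SE 0.30, adjusted p = 0.0113 in 20% O2 and 2.58, SE 0.30, adjusted p = 0.00459 in 1% O2). In 20% O2 the hypoxia target *Vegfa* (-1.10, SE 0.22, adjusted p = 0.0372) and the skeletal muscle actin *Acta1* (-1.28, SE 0.22, adjusted p = 0.0143) were lower, and the summed skeletal muscle markers were at 12.4 to 17.9 CPM in cKO and 24.4 to 47.7 CPM in Ctrl TFs. These genes were named after their values were seen, and their part in the members' values was not tested.

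Gesicle treatment gave no called member either, with 0.0247% of tested genes called in 20% O2 and 0% in 1% O2, where 324 genes had an unadjusted p under 0.05. In 1% O2, *Kdm3a* was at 62.5, 64.0 and 44.7 CPM with gesicles against 72.1, 77.0 and 73.8 CPM without, which did not overlap (-0.38, SE 0.20, edgeR adjusted p = 1). All 10 values were below 0 in 20% O2 (median -0.13) and 7 of 10 in 1% O2 (median -0.03). The medians of all tested genes were 0.005 and -0.008. With the offsets, 7 of 10 were below 0 in 20% O2 (median -0.08) and 5 of 10 in 1% O2 (median 0). Both comparisons, and those of cKO TFs, use the same Ctrl libraries.

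**Figure D5:**
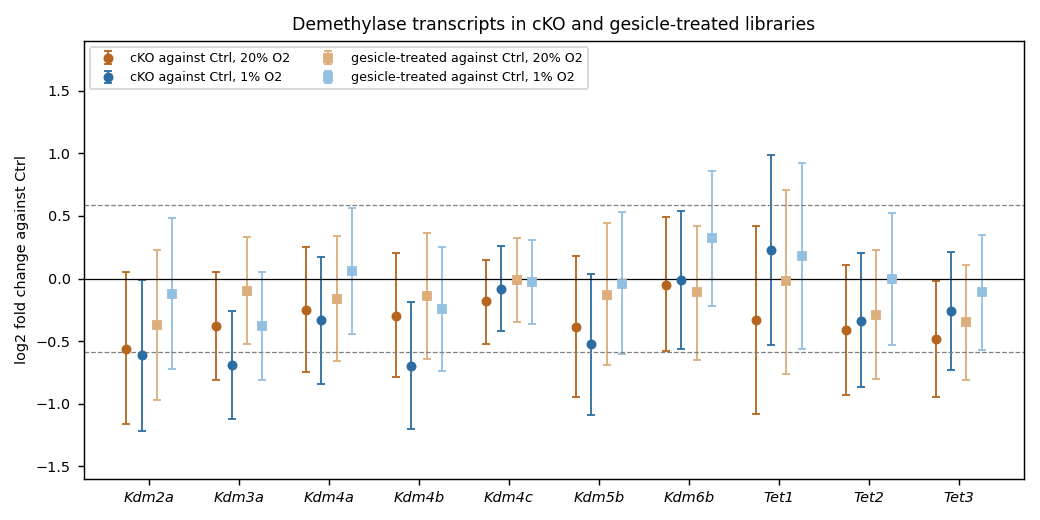
Log2 fold change of each member against Ctrl TFs at the same oxygen level (vertical axis), for cKO and gesicle-treated TFs, with 95% intervals from the edgeR fit and dashed lines at a fold of 1.5. In cKO TFs in 1% O2, the intervals of *Kdm3a* (-1.12 to -0.26), *Kdm4b* (-1.20 to -0.19) and *Kdm2a* (-1.22 to -0.01) lie below 0 before adjustment over all genes.

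The response to oxygen was then compared between arms by the interaction in the same fit. It was called for 0% of tested genes and for no member, between cKO and Ctrl TFs and between gesicle-treated and Ctrl TFs. DESeq2 also called 0 genes in both, and 442 and 243 genes had an unadjusted edgeR p under 0.05. For *Kdm3a*, the response in cKO minus that in Ctrl TFs was -0.31 (95% interval -0.91 to 0.30), and for *Kdm4b* it was -0.40 (-1.11 to 0.31). For *Tet2* it was 0.08 (-0.67 to 0.82) and for *Kdm4a* -0.08 (-0.79 to 0.63). With the offsets the difference was -0.26 (SE 0.19) for *Kdm3a* and -0.20 (SE 0.18) for *Kdm4b*, and with the replicate block added -0.24 (SE 0.15) and -0.16 (SE 0.14).

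Genes with related roles gave a frame for these values. The hypoxia reference genes, which are targets of hypoxia-inducible factors, all passed an adjusted p of 0.05 in the averaged comparison (12 of 12 higher), and 10 of 12 were called, with a median log2 fold change of 1.7. *Ndufa4l2*, which lowers mitochondrial oxygen use, was at 5.37 (SE 0.18, edgeR adjusted p = 1.15e-11), *Pdk1*, a kinase that restrains pyruvate dehydrogenase, at 2.25 (SE 0.11, adjusted p = 2.18e-09), and *Bnip3*, a mitophagy receptor, at 2.17 (SE 0.11, adjusted p = 4.25e-09). Within arms, 11 of these 12 were called higher in Ctrl TFs, 9 in gesicle-treated Ctrl TFs and 9 in cKO TFs. The interaction was called for none of the 12, nor for any tested gene. At an unadjusted edgeR p under 0.05, 4 of 12 responded less in cKO than in Ctrl TFs and 0 responded more. With gesicles 3 responded less and 0 more. Of all 16174 tested genes, 442 and 243 had such a p, in either direction.

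Of the other 24 proteins with a JmjC domain or fold, the catalytic fold of the histone demethylases, 1 was called in the averaged comparison. *Jmjd8*, which lacks a known demethylase activity, averaged 72.6 CPM in 1% O2 and 32.7 CPM in 20% O2 and rose by 1.17 on the log2 scale (SE 0.08, edgeR adjusted p = 7.63e-08). It was the 1 gene called of this list in each of the 3 arms as well. *Riox1*, a ribosomal oxygenase (-0.37, SE 0.09, adjusted p = 0.00812), *Kdm2b*, a paralog of *Kdm2a* (-0.43, SE 0.13, adjusted p = 0.0221), and *Jmjd1c*, a relative of *Kdm3a* (-0.34, SE 0.11, adjusted p = 0.0316), were below the p threshold with folds under 1.5. The list's median was -0.05. Neither flavin-dependent demethylase, which use flavin in place of 2-oxoglutarate, passed the test, with values of 0.08 (SE 0.08) for *Kdm1a* and 0.05 (SE 0.14) for *Kdm1b*.

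The enzymes that place the opposing marks were not called in the averaged comparison. Beside the 24.6% of tested genes that passed the p threshold alone, those below it were 1 of 6 H3K9 methyltransferases (*Setdb2*, -0.55, SE 0.17, edgeR adjusted p = 0.0274), 0 of 6 H3K4 methyltransferases, 1 of 4 genes of the H3K27 methyltransferase complex (*Ezh1*, 0.28, SE 0.08, adjusted p = 0.0215) and 1 of 5 H3K36 methyltransferases (*Nsd3*, -0.42, SE 0.11, adjusted p = 0.0107). Of 6 genes of DNA methylation and base excision, *Tdg*, the glycosylase that removes the bases made by Tet enzymes, passed at -0.33 (SE 0.07, adjusted p = 0.00331). *Dnmt1*, the maintenance methyltransferase, was at -0.57 (SE 0.20, adjusted p = 0.0537) and its partner *Uhrf1* at -0.71 (SE 0.30, adjusted p = 0.0928). None of 13 genes of 2-oxoglutarate supply and its inhibitors passed, and *Idh1*, which makes 2-oxoglutarate, was closest at 0.20 (SE 0.07, adjusted p = 0.0576).

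Of the cell markers, the 6 proliferation markers were all below 0 in the averaged comparison, with a median log2 fold change of -0.42, and 0 passed an adjusted p of 0.05 (*Mki67* -0.87, SE 0.32, edgeR adjusted p = 0.0561). Their summed level ran from 121 to 230 CPM in Ctrl in 20% O2 and from 119 to 246 CPM in 1% O2, and from 209 to 243 CPM against 150 to 167 CPM in cKO TFs. The correlation with *Mki67* over the 18 libraries was 0.565 for *Tet2* and -0.0307 for *Kdm3a*, and the part of cell division in the level of *Tet2* was not tested. Fewer cells of a type and less RNA per cell cannot be told apart in bulk libraries. Among the markers of other cells that passed the filter on low counts, *Kdr*, an endothelial receptor, was called lower in 1% O2 (edgeR adjusted p = 0.00189). Its mean was 0.0161 CPM in 1% O2, under the floor, and 0.304 CPM in 20% O2, above it. No library held more than 25 counts of *Kdr*, and its part in the results was not tested. No macrophage, skeletal muscle, cartilage, bone or Schwann cell marker was called in the averaged O2 comparison. Among tendon fibroblast markers, *Fmod* rose by 0.70 on the log2 scale (SE 0.16, adjusted p = 0.00594) and *Dcn* fell by 0.61 (SE 0.17, adjusted p = 0.0141).

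The genes whose log2 levels were most like those of *Tet2*, the member called, were *Armh3* (Pearson r = 0.957), *Thrap3* (0.955) and *Gpr161* (0.95) over the 18 libraries. By Spearman rank correlation the first 3 were others, *Prx* (0.967), *Plekhg3* (0.961) and *Slc9a8* (0.959). The libraries share oxygen, arm, depth and the long-gene signal, and these values are descriptions of likeness.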

How the data were processed

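RNA from 18 libraries of mouse tail TFs was read by poly-A paired-end sequencing. The authors trimmed the reads with cutadapt, mapped them with STAR to GRCm38 and estimated counts per gene with RSEM 1.3.3, and they deposited these expected counts rounded to whole numbers and not normalized. The labels give 10% serum where the study's text differs, which touched no comparison here. The members and the gene lists were chosen with earlier results of these data known.

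Genes were filtered with filterByExpr and all 18 libraries were fitted together in edgeR 4.0.16 under R 4.3.3, with TMM scaling, a coefficient for each group and the quasi-likelihood test. Calls required a Benjamini-Hochberg adjusted p under 0.05 over all genes tested, together with a fold of 1.5 or more. The SE of a log2 fold change is its size divided by the root of F. CPM values are TMM-normalised. Gene positions and lengths came from GENCODE M21 (GRCm38), and promoter sequences from RefSeq (GRCm38.p6). The study's methods give n = 3 for the mice that the TFs came from, but no label ties a replicate number to a mouse. By *Xist* and *Ddx3y*, a replicate number had the same sex in every Ctrl and gesicle-treated group, and likewise within the cKO groups. The p-values measure the spread between these samples, and the floor of 3 counts covers counting error only. No 2 libraries were copies of each other (smallest chi-square per degree of freedom 15.3).

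Replicate numbers were checked by correlating deviations from group means between libraries with the same number. Every correlation was over 0.1 for O2 in Ctrl TFs (0.271, 0.3 and 0.458) and for gesicle-treated against Ctrl TFs (0.193 to 0.462), which was read as pairing, and not for the other comparisons. For O2 in cKO TFs they were 0.0956, 0.0921 and 0.368, so that pairing was refused only narrowly. The study's methods name a paired design in DESeq2, with Ctrl against cKO as the example, and state no pairing factor. The main fit held no block, also where pairing was read. Alternatives were DESeq2 1.42.0, RLE scaling, all genes with a count, a filter of CPM above 1 in 3 or more libraries, a block for the replicate number, fits of the groups compared and of 12 libraries, no fold minimum, Xist as a covariate and each library left out. The block was the replicate number within Ctrl and gesicle-treated TFs together and within cKO TFs. For cKO against Ctrl TFs it was the number alone. The block was also run where no pairing was read, and its values there are alternatives only. Offsets for GC content and length (splines with 4 degrees of freedom), alone and with the block, and a fit without 2 cKO libraries were added after the data were seen. The edgeR fit, DESeq2, a replicate block and the offsets were tested on simulated counts, and the rest of the code was not. The simulated counts held no mouse effect and no GC trend, and any length trend was the same in every 1% O2 library. They therefore did not test the block on paired libraries, nor the offsets on a signal that varies by library. The genes named are all members, up to 3 genes of each list with the smallest adjusted p in the averaged comparison, and the 3 genes most like each called member. *Jmjd1c*, and the 3 list genes called between cKO and Ctrl TFs, were named after their values were seen. In cKO TFs, leaving out a library leaves 2 in its group, whose spread is pooled with the other groups.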

Additional observations from a re-analysis of the deposited data

Results flagged for a closer look

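Reads of transgene sequences, which no comparison above used, were present in the treated groups and at 0 in Ctrl TFs. Cre had 15 counts in all, in 5 of the 6 cKO libraries and at most 5 in a library, and eGFP had 14 counts, also in 5 cKO libraries. The exception for both was the shallowest cKO library, replicate 1 in 1% O2. The tdTomato sequence had 8 counts, in 5 of the 6 gesicle-treated libraries and at most 3 in each. Cre was at 0 in the gesicle-treated libraries, and mCherry was at 0 in all 18.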

How the results depend on the processing

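Of the counts of called members, those for cKO or gesicle-treated against Ctrl TFs, for the interactions and for O2 in gesicle-treated TFs stayed at 0 in every alternative run. For O2 in Ctrl TFs the count was 0, and it was 1 with DESeq2, with the replicate block and with Xist as a covariate (*Tet2* in each) and 1 with the offsets, alone or with the replicate block (*Kdm3a*). For the averaged O2 comparison it was 1, and it was 3 with no fold minimum and 0 with the offsets, alone or with the replicate block. It ran from 1 to 2 with 1 library left out and was 1 without the 2 cKO libraries of lowest long-gene signal. For O2 in cKO TFs it ran from 0 to 1 with 1 library left out, *Tet2* being called without replicate 2 in 20% O2. The replicate block changed no other call.

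No value that changed sign was called. With the offsets, alone and then with the replicate block, they were in the averaged comparison 0.0122 and 0.012 for *Kdm2a*, 0.146 and 0.128 for *Kdm6b* and 0.124 and 0.117 for *Kmt2a*; in Ctrl TFs 0.0434 and 0.00944 for *Kdm6b* and 0.369 and 0.351 for *Tet1*; in cKO TFs 0.275 and 0.28 for *Kdm5b*, 0.0556 and 0.05 for *Kdm6b* and 0.157 and 0.14 for *Tet3*; in gesicle-treated TFs 0.103 and 0.0997 for *Kdm2a*; in cKO against Ctrl TFs in 1% O2 0.506 and 0.521 for *Kdm6b*, 0.0572 and 0.0556 for *Tet2* and 0.303 and 0.298 for *Tet3*; and in 20% O2 0.494 and 0.502 for *Kdm6b*, 0.0779 and 0.0679 for *Tet1* and 0.0408 and 0.0552 for *Tet3*. Without the 2 cKO libraries of lowest long-gene signal they were in the averaged comparison -0.0471 for *Kdm1b*, -0.0156 for *Kdm4c*, -0.0165 for *Kdm5b* and 0.0452 for *Kdm6b*, for O2 in cKO TFs -0.0679 for *Kdm4b*, -0.094 for *Kdm4c* and 0.185 for *Kdm6b*, and for cKO against Ctrl TFs in 1% O2 0.235 for *Kdm6b*. DESeq2 gave -0.000273 for *Kdm4c* in gesicle-treated TFs and 0.0287 for *Kdm6b* in cKO against Ctrl TFs in 1% O2, where the CPM filter gave 0.00193. The cause of these changes was not tested.

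With 1 library left out, the ranges that crossed 0 were, for O2 in Ctrl TFs, -0.0601 to 0.0408 (*Kdm4c*), -0.141 to 0.0804 (*Kdm5b*) and -0.415 to 0.212 (*Tet1*). For O2 in cKO TFs they were -0.192 to 0.392 (*Kdm4b*), -0.0592 to 0.277 (*Kdm4c*), -0.366 to 0.0769 (*Kdm5b*) and -0.37 to 0.0261 (*Kdm6b*). In gesicle-treated TFs they were -0.361 to 0.0973 (*Kdm2a*), -0.0577 to 0.134 (*Kdm4c*) and -0.0497 to 0.345 (*Kdm5b*), and averaged -0.00651 to 0.105 (*Kdm4c*), -0.0689 to 0.0836 (*Kdm5b*) and -0.0596 to 0.157 (*Kdm1b*). For cKO against Ctrl TFs they were -0.331 to 0.00541 (*Kdm4c*) and -0.204 to 0.0809 (*Kdm6b*) in 20% O2 and -0.165 to 0.223 (*Kdm6b*) in 1% O2.

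With 3 libraries a group, the intervals of single members are wide, and the shallowest cKO library held 12 to 375 counts of each member. Sex differs between the replicates of a group and its makeup differs between cKO and Ctrl TFs. Transcripts say nothing of enzyme activity or methylation.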
